A study of Mus musculus with 6 samples.

Results

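The contacts of the Sox2 promoter were the distal regions that the HiCap and Hi-C lists of mouse embryonic stem cells (mESCs) paired with the promoter fragment named Sox2. They comprised 68 distinct distal regions of 639397 in all lists together, and 16 of these were found with the identical promoter and distal fragment in both HiCap replicates, which is what is termed called here. HiCap joins Hi-C with the restriction enzyme MboI, which cuts at GATC, to sequence capture of promoters, and was carried out on 2 biological replicates of R1 mESCs grown on gelatin with serum and LIF. The cells were fixed with 1% formaldehyde for 10 min and digested for 4 h. Hi-C of the same line was deposited as 1 list in which 2 replicates are pooled, and the 2 Capture-C samples were not analysed here. All samples share line and culture, so no condition was compared. The lists give positions on mm9 without read numbers, so the depth behind each contact is unknown.

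Sox2 encodes an HMG-box transcription factor that binds DNA together with OCT4, the product of Pou5f1, and keeps embryonic stem cells pluripotent. A promoter can be contacted by enhancers that lie far away on the same chromosome through looping of the chromatin, and Sox2 is known in mESCs for enhancers both close to the gene and in the gene-poor stretch downstream of it. The Sox2 gene sits inside a long noncoding transcript of the same strand, Sox2ot. A listed contact is a ligation of cross-linked fragments and does not measure enhancer activity.

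Sox2 (ENSMUSG00000074637.3) lies on the + strand of chromosome 3 of mm9, from 34548927 to 34551383. A single promoter fragment carried its name, listed from 34547652 to 34549203, which is 1551 bp long and reaches from 1275 bp before to 276 bp after the annotated start. Starts of distal regions in the lists count from 0, so a distal fragment begins 1 base after its listed start. The promoter fragment is given as listed. Its listed start does not match the end of the MboI fragment before it, at 34547650. Distances were taken between fragment midpoints, and positive values lie downstream, in the direction of Sox2 transcription. No list named the Sox2 promoter fragment as a distal region of another promoter. These lists pair promoters with distal regions, and the authors called pairs of promoters separately. The absence therefore cannot show whether other promoters contact that of Sox2.

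The sequences below show the bait end of the contacts, the only 2 called regions upstream of it, and windows of the 2 called regions that Hi-C also listed. They were read from the mm9 genome. Each window is the stretch of 240 bases with the most matches to 5 motifs in its fragment (a tie was broken by the middle one). Capitals mark matches on either strand to ATGCAAAT (the octamer of POU factors such as OCT4), ACAAAG (SOX factors), AAGGTCA (ESRRB and other nuclear receptors), GGGTGTG (KLF factors) or AGGNGGC (part of the CTCF motif).
The 250 bases before the annotated Sox2 start, chr3:34548677-34548926, + strand: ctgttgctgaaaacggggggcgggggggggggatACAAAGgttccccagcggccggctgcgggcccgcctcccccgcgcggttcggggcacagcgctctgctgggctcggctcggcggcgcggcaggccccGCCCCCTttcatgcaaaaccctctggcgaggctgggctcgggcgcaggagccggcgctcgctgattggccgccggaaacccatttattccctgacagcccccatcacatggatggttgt
Whole called fragment at −6.22 kb, chr3:34542129-34542291, + strand: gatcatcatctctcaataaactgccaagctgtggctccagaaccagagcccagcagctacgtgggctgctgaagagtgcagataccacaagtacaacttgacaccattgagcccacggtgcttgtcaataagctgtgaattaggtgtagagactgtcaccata
Whole called fragment at −1.86 kb, chr3:34546421-34546717, + strand: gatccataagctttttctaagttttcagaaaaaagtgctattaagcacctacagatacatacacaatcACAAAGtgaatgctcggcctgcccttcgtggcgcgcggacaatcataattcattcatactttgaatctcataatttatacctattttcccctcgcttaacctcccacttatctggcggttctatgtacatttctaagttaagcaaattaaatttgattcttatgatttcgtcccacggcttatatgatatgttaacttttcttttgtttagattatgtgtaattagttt
Window of the called fragment at +5.03 kb, chr3:34553852-34554091, + strand: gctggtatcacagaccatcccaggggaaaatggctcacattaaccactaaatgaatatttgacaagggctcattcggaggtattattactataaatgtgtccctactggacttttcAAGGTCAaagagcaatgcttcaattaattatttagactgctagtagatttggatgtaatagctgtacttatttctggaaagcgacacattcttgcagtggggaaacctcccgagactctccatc
Window of the called fragment at +107.7 kb, chr3:34655167-34655406, + strand: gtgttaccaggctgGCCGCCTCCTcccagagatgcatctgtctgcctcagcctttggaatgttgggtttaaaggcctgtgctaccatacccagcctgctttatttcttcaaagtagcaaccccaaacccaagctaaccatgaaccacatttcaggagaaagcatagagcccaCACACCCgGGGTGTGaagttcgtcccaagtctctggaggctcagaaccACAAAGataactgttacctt

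HiCap replicate 1 listed 25 distal regions for Sox2 and replicate 2 listed 58. The 16 called regions were all those of the combined list that the authors deposited, 9 regions were in replicate 1 alone and 42 in replicate 2 alone. Hi-C listed 3 regions, of which those at +5.03 and +107.7 kb were called and that at −7.16 kb was in no HiCap list. Of the 21202 genes listed in a HiCap replicate, 60.7% had a called region, and 92.7% had fewer than Sox2 (median 1, with 1408 genes above 16). Sox2 stood lower within single lists, above 68.3% of these genes in replicate 1, above 85.8% in replicate 2 and above 57.1% of 21956 genes in Hi-C.

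Downstream of the promoter lay 14 of the 16 called regions, or 87.5% (exact binomial 95% interval 61.7 to 98.4). Intervals here cover counting error only, and regions contacted by 1 promoter are not independent. The share was 22 of 25 in replicate 1 and 51 of 58 in replicate 2, and 2 of 3 Hi-C regions were downstream. Over all genes with 1 annotated strand, 52.2% of called pairs were downstream, and 67 of the 2802 genes with at least 10 called regions (2.39%) had a share as high as Sox2. The skew was therefore seen in each HiCap list and was not a property of the called regions alone. When called fragments that adjoin were joined, 7 of 9 stretches were downstream (77.8%, 40.0 to 97.2). That interval includes the 52.2% of called pairs over all genes.

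**Figure D1:**
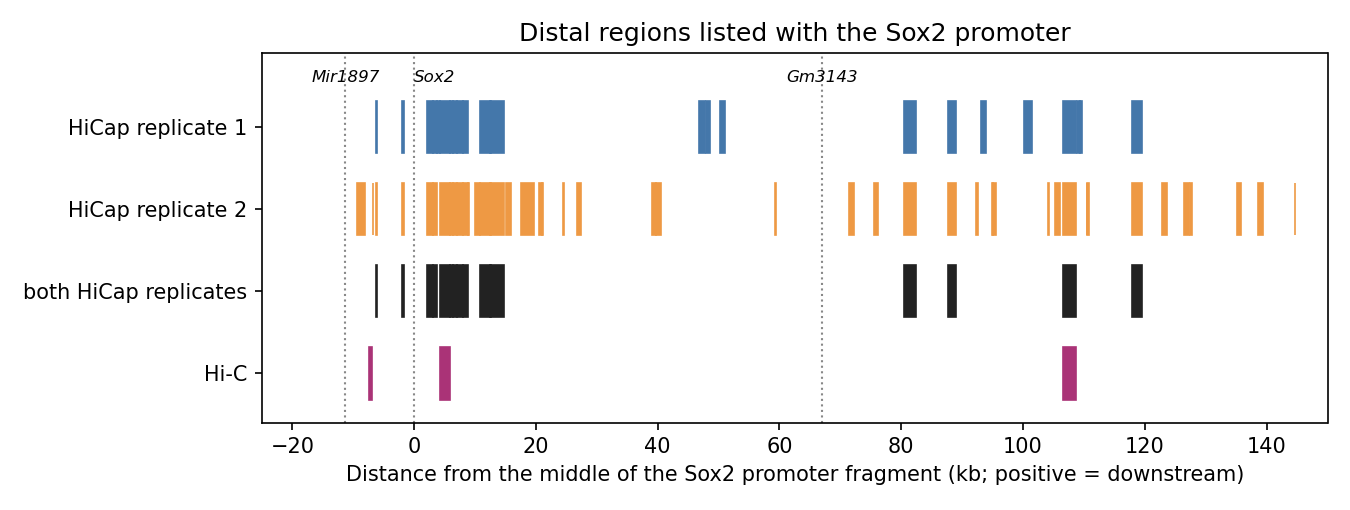
Distal regions listed with the Sox2 promoter by distance in kb, with 1 row per list; each box is 1 fragment drawn to its length (with a thin outline), and dotted lines mark the promoters of Mir1897, Sox2 and Gm3143. The 16 regions in both HiCap replicates fall into 12 within 15 kb and 4 from 81.4 to 118.7 kb downstream, and regions beyond the axis are not drawn.

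Close to the gene, 12 called regions lay within 15 kb and all 12 overlapped Sox2ot. Of these, 3 lay at 1 to 5 kb and 9 at 5 to 15 kb, or 18.75 and 56.25% of the 16 called. Over all promoters, 24.2 and 37.7% of called pairs lay in these classes, and the exact intervals for Sox2 included both values. The calls close to the gene are therefore not shown to be particular to Sox2. Sox2ot spans 34003360 to 34581541, so every fragment within 15 kb overlaps it, called or not. Upstream, 2 short fragments were called, of 163 bp at −6.22 kb and of 297 bp at −1.86 kb. Downstream, the first called fragment, from 34550594 to 34551466 at +2.60 kb, covered the end of Sox2, including part of its 3′ untranslated region, and its neighbour at +3.44 kb overlapped an exon of Sox2ot. A second run of 5 adjoining fragments, from 34552636 to 34557286, covered 4650 bp with midpoints at +5.03, +6.11, +6.66, +7.52 and +8.47 kb. The fragments at +6.66 and +7.52 kb overlapped exons of Sox2ot, and the others of this run its introns. A further run of 3 fragments, from 34559313 to 34563172, covered 3859 bp at +11.7, +12.5 and +13.7 kb in an intron of Sox2ot. With adjoining fragments joined, the 16 called regions made 9 stretches, and whether neighbouring calls within a run are separate contacts was not tested.

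The digest itself was uneven around the promoter. MboI cut the sequence between 1 and 15 kb downstream into 21 fragments with a median of 609 bp, and the same span upstream into 36 with a median of 244 bp. Downstream, 10 of the 21 fragments were called (47.6%, exact binomial 95% interval 25.7 to 70.2), against 2 of 36 upstream (5.56%, 0.680 to 18.7). Among fragments of 500 bp or longer, 8 of 11 were called downstream and 0 of 11 upstream, where a count of 0 allows a share of up to 28.5% by the exact interval. The 36 and the 11 upstream include the captured promoter fragment of Mir1897, of 669 bp. The authors called pairs of promoters separately, so that fragment counts as not called here. Among fragments under 500 bp, 2 of 10 were called downstream (interval 2.52 to 55.6%) and 2 of 25 upstream (0.984 to 26.0%), and these intervals overlapped. Fragment length thus differed between the sides, and its part in the skew was not tested. These spans and the length limit were chosen after the data were seen.

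**Figure D2:**
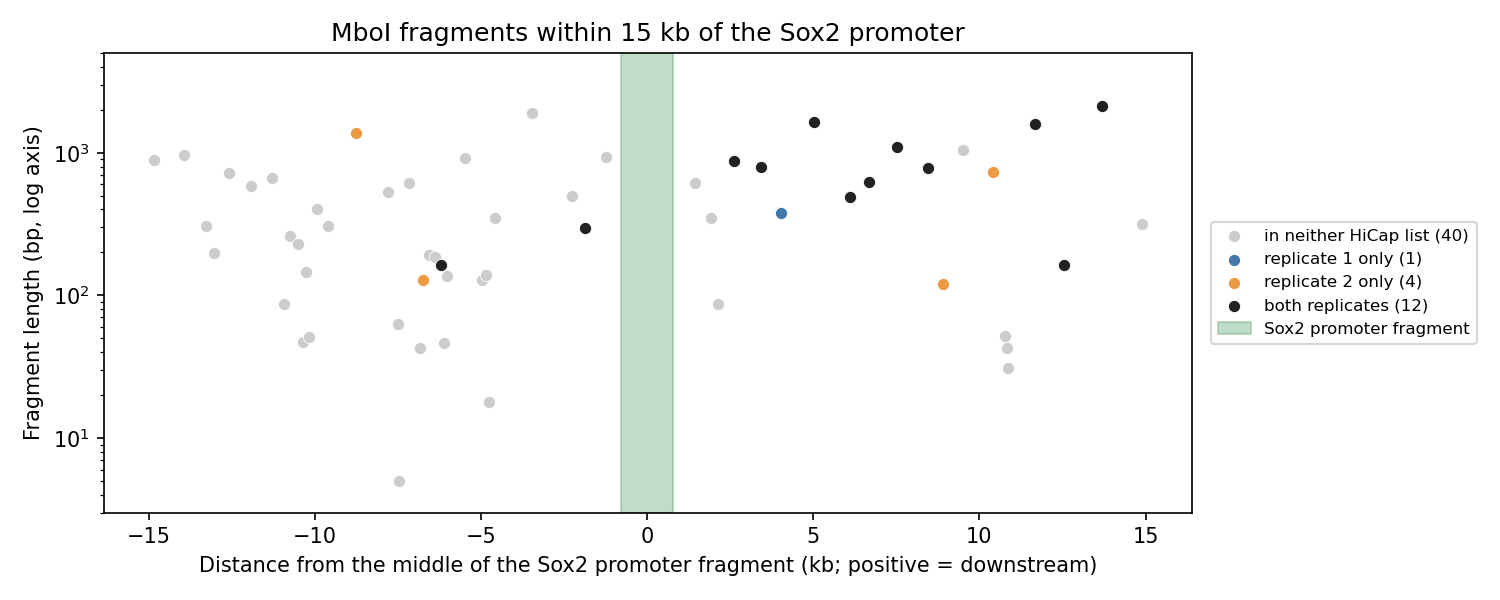
Every MboI fragment centred 1 to 15 kb from the middle of the Sox2 promoter fragment, by distance (kb) and length (bp, log axis), coloured by the HiCap lists that name it as a Sox2 contact; the green band is the promoter fragment. The 12 fragments in both replicates are 10 downstream and 2 upstream, and 40 fragments are in neither list.

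No region was called between +13.7 and +81.4 kb. Each replicate did list regions there, 3 in replicate 1 (at +47.3, +48.3 and +50.6 kb) and 11 in replicate 2, but none was shared, and Hi-C listed none. In the span from 15 to 80 kb downstream, 0 of 165 MboI fragments was called, and 0 of the 12 that were 1000 bp or longer, which allow shares of up to 2.21 and 26.5% by the exact interval. The 165 include the captured promoter fragment of Gm3143. Of the 742 promoters with at least 16 called regions that had calls both at 50 to 100 kb and at 100 to 500 kb, 10, Sox2 included, had none at 15 to 50 kb. Among all 1405 promoters with calls in both of those classes, 273 (19.4%) had none between 15 and 50 kb. The empty span was thus uncommon among promoters with as many calls, and these classes were chosen after the data were seen.

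Beyond the gap, 4 intergenic regions were called, and all were long fragments. The first, from 34628869 to 34630815, was 1946 bp at +81.4 kb, and the second, from 34636101 to 34637494, was 1393 bp at +88.4 kb. The third, from 34654982 to 34657201, was 2219 bp at +107.7 kb and the longest called fragment of Sox2. The fourth, from 34666345 to 34667968, was 1623 bp at +118.7 kb. From 80 to 120 kb downstream, 4 of 91 MboI fragments were called, which were 4 of the 12 fragments of 1000 bp or longer and 0 of the 65 shorter than 500 bp. The region at +107.7 kb was also in the Hi-C list, where 143 of 5814 called pairs at 100 to 500 kb (2.46%) were found. Of the 15876 promoters with a call, 22.5% had one at 100 to 500 kb.

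Around these 4 regions, single replicates listed further fragments. Replicate 1 alone listed +93.5, +100.8, +109.1 and +109.5 kb, and replicate 2 alone listed +92.4, +95.04, +95.3, +104.2, +105.7, +110.5 and +110.7 kb. When distal fragments within 1 kb of each other counted as shared, 20 of the 25 regions of replicate 1 and 25 of the 58 of replicate 2 were matched in the other list. Farther from the promoter than the farthest called region, on either side, replicate 1 listed 0 regions and replicate 2 listed 20, of which those at −644.7, −461.2 and −390.9 kb were upstream and the most distant were downstream at 16564 and 18313 kb. Over all promoters, 19.4% of replicate 2 pairs and 0.371% of replicate 1 pairs spanned over 1 Mb, and for Sox2 these were 2 of 58 (3.45%) and 0 of 25.

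Replicate 2 listed 64.0% of the Sox2 regions of replicate 1 (16 of 25, exact binomial 95% interval 42.5 to 82.0), against 19.0% over all promoters. Replicate 1 listed 27.6% of those of replicate 2 (16 of 58, 16.7 to 40.9), against 17.1%. The first interval excluded the value over all promoters and the second included it. By distance, all 9 replicate 1 regions at 5 to 15 kb were in replicate 2 (lower limit 66.4%), where the share over all promoters was 25.4%. At 1 to 5 kb it was 3 of 4 (all promoters 31.6%), at 15 to 50 kb 0 of 3 (16.1%), at 50 to 100 kb 2 of 4 (11.6%) and at 100 to 500 kb 2 of 5 (7.69%). Of the replicate 2 regions, 3 of 3, 9 of 13, 0 of 8, 2 of 8 and 2 of 20 in these classes were in replicate 1, and 0 of 6 over 500 kb. Over all promoters these shares were 58.0, 45.8, 23.5, 12.0, 4.24 and 0.128%. Agreement between the replicates was thus highest within 15 kb, both for Sox2 and over all promoters. Outside the class of 5 to 15 kb in replicate 1, every interval included the value over all promoters.

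**Figure D3:**
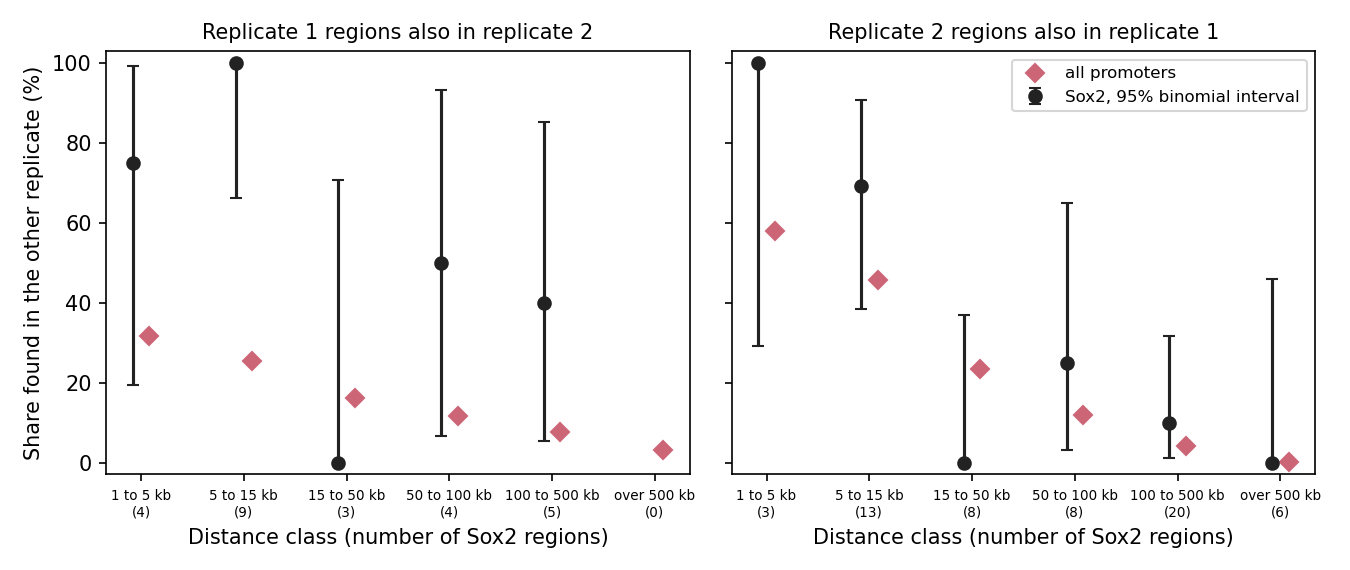
Share of the distal regions of one HiCap replicate that the other lists (%), by distance class, for Sox2 (black, with exact 95% binomial intervals) and over all promoters (red diamonds); the number of Sox2 regions is given under each class. For replicate 1 regions at 5 to 15 kb the Sox2 share is 9 of 9 and that of all promoters is 25.4%; at 15 to 50 kb it is 0 in both panels.

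The median distance of the called Sox2 regions was 8.0 kb, with a range of 1.86 to 118.7 kb, against 10.3 kb over all called pairs. It was 13.7 kb in replicate 1 and 90.4 kb in replicate 2, where the medians over all promoters were 19.8 and 100.9 kb. Hi-C listed 2 of the 16 called regions (12.5%, 1.55 to 38.3), and 12.5% of called pairs over all promoters. With distal fragments matched within 1 kb, 6 of the 16 were matched in Hi-C (37.5%, 15.2 to 64.6). Called fragments of Sox2 had a median length of 984.5 bp (162 to 2219 bp), against 655 bp for the 9 in replicate 1 alone, 484 bp for the 42 in replicate 2 alone and 568 bp for all called distal regions. Fragments shorter than 200 bp were 2 of the 16 called and 14 of the 42 in replicate 2 alone. The part of fragment length in what was called was not tested.

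Within 1 Mb of Sox2, 6 other genes had a promoter fragment in the lists. A targeted promoter without a listed pair is not seen here. Upstream lay Ttc14 at −849.8 kb, Ccdc39, which encodes a protein of motile cilia, at −805.1 kb, Fxr1, a relative of the fragile X gene that encodes an RNA-binding protein, at −628.3 kb, and Dnajc19, a mitochondrial co-chaperone gene, at −568.2 kb. The microRNA gene Mir1897 lay 11.3 kb upstream, and Gm3143, annotated by RefSeq as a long noncoding RNA, lay 67.0 kb downstream. Sox2 was the nearest listed promoter for 11 of the 16 called regions (68.8%, 41.3 to 89.0). The same share over all called pairs was not computed, so this value is not shown to be particular to Sox2. Mir1897 was nearest to the region at −6.22 kb, and Gm3143 to all 4 regions beyond the gap, which Sox2 reached past the Gm3143 promoter. By annotated starts instead of listed promoters, Sox2 was nearest for 3 of 16, since Sox2ot has transcripts that start downstream of Sox2 in the annotation.

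The region at +107.7 kb was called for 3 promoters, those of Sox2, Mir1897 and Gm3143, whereas 5.44% of the 71955 called distal regions were called for at least 3 promoters. Mir1897, 119.0 kb from it, had 2 regions in replicate 1, 5 in replicate 2 and this one in both. A further one lay at 16743 kb, and the other 4 were called regions of Sox2, at +5.03 kb in replicate 1 and at +3.44, +6.11 and +13.7 kb in replicate 2. Gm3143, 40.7 kb from the shared region, had 5 regions in replicate 1 and 2 in replicate 2, both of which were called. The second, from 34657232 to 34657734, was listed for Sox2 in replicate 1 alone. Gm3143 also had the Sox2 region at +5.03 kb in replicate 1, and that at +88.4 kb in Hi-C. The 2 Sox2 regions in the Hi-C list that were called were therefore each listed in replicate 1 for Mir1897 and Gm3143 too.

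**Figure D4:**
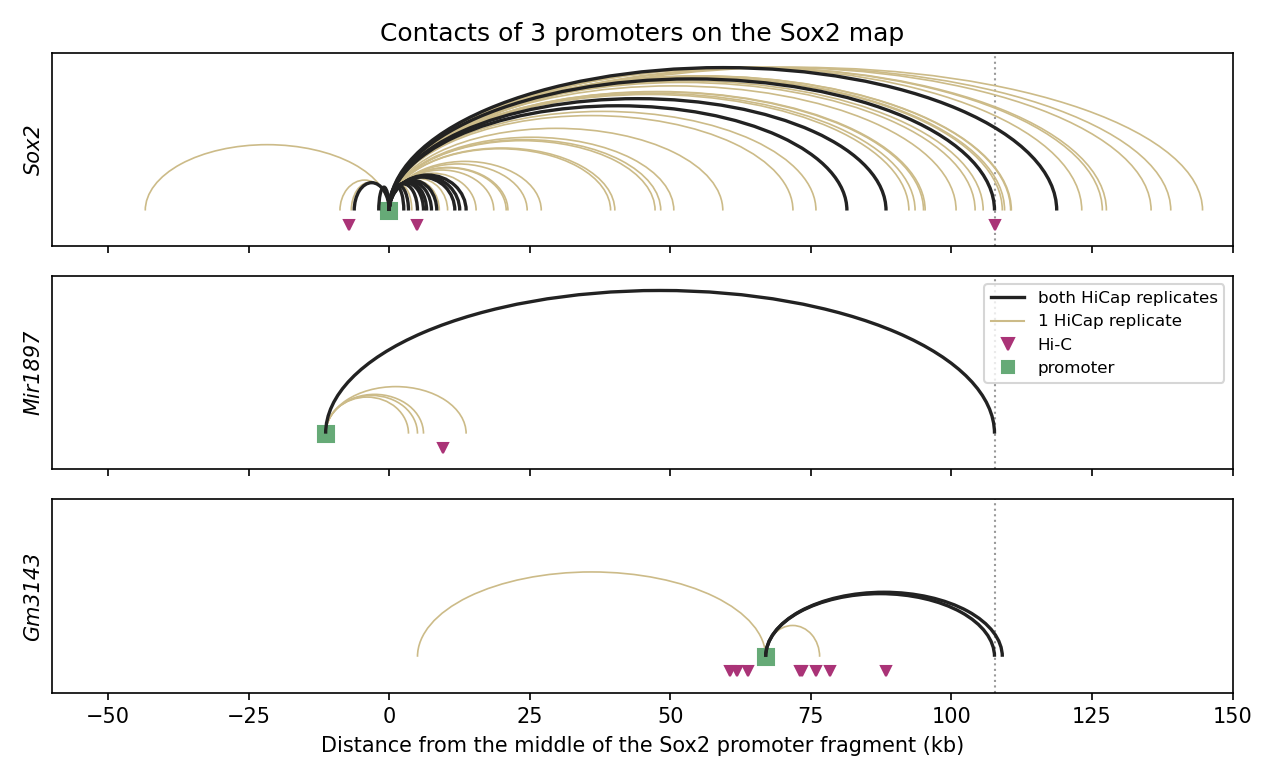
Contacts of the promoters of Sox2, Mir1897 and Gm3143 by distance from the Sox2 promoter fragment (kb); black arcs are in both HiCap replicates, pale arcs in 1, triangles mark Hi-C regions, squares the promoters and the dotted line the region at +107.7 kb. Black arcs of all 3 promoters end at that line; arc height has no unit, and contacts beyond the axis are not drawn.

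The more distant neighbours shared little with Sox2. Dnajc19 had 53 regions in replicate 1, 96 in replicate 2 and 18 in both, and listed the region at +5.03 kb in replicate 2 from 573.2 kb away. Ccdc39 (7, 23 and 0) listed the region at +107.7 kb in replicate 2 from 912.8 kb. Ttc14 (13, 50 and 3) and Fxr1 (2, 0 and 0) listed no Sox2 region. Other promoters at called Sox2 regions were in replicate 2 alone, those of Mrpl47, Maml3, Golim4, Dclk2 and Ankrd34a, at 1922 to 61849 kb (named after their values were seen). Apart from Mir1897 and Gm3143, no promoter was called at a region called for Sox2.

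Motif matches in the called Sox2 fragments were counted beside those in called fragments of like length, without a test. ACAAAG was found in 11 of the 16 (68.8%), where 57.4% of other called distal regions within 10% of the same lengths held it, and AGGNGGC in 8 (against 45.1%). GGGTGTG was in 5 (against 23.1%), AAGGTCA in 4 (19.9%) and ATGCAAAT in 1 (5.35%). In the fragment at +107.7 kb, 3 matches to AAGGTCA and 3 to GGGTGTG were found, and 1.53% and 3.92% of 1047 called regions of like length held as many of each. It also held 3 matches to AGGNGGC, of which those in the window overlap each other, and 2 to ACAAAG, and 20.3% and 59.6% of these regions held as many. It held 0 matches to ATGCAAAT, which 11.4% of these regions held. The 250 bases before the Sox2 start held 1 match to ACAAAG and 1 to AGGNGGC, which 15.4% and 27.0% of 22375 protein-coding promoters of this length held. They held 0 matches to ATGCAAAT, AAGGTCA and GGGTGTG, which 1.62, 3.41 and 7.13% of these promoters held. G+C content of the called fragments was 45.3% in the median (33.3 to 53.7%), against 46.5% for other called regions. A match is a string of letters, and binding was not measured.

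Sox2 had the most called regions of the SOX family genes that the lists named. Of 20 family genes, 15 were named in the HiCap lists and 11 of these (73.3%) had a called region, against 60.7% of all listed genes, with a median of 2. Sox1, like Sox2 a gene of the SOXB1 group, had 6 regions in replicate 1, 32 in replicate 2 and 2 in both. Sox12 and Sox17, an endoderm regulator, had 12 each and Sox10, Sox11, Sox14 and Sox21 had 0, while Sox3, Sox8, Sox9, Sox30 and Sry were not named in the lists. Other family genes stood above Sox2 in single lists. In replicate 1 these were Sox17 (60), Sox4 (48), Sox5 (44), Sox13 (39), Sox12 (31) and Sox18 (27), beside 25 for Sox2. Counts are per gene, and Sox5 and Sox13 had 3 listed promoter fragments each, against 1 for Sox2. In replicate 2, Sox12 alone stood above Sox2, with 65 regions beside 58, and Sox17 stood below it with 47. Hi-C listed 16 for Sox13, 10 for Sox17, 9 for Sox12 and 5 for Sox1, beside 3 for Sox2. These are counts, and the family was not tested as a list.

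Among 19 genes of partners of SOX2 in the pluripotency network, all were listed and 17 (89.5%) had a called region, against 60.7% of all listed genes, with a median of 4 against 1; this list was not tested either. Klf2, the gene of a Krüppel-like factor, had 35 and Stat3, the gene of the transducer of LIF signals, had 18. Lefty1, which encodes an inhibitor of Nodal, had 16, as many as Sox2. Sall4 and Nr0b1 had 0. These counts are per gene, over all its promoter fragments. The HiCap lists held 7 such fragments for Stat3 and 2 for Lefty1, against 1 each for Klf2 and Sox2. Pou5f1 had 3 called regions within 6.22 kb of its promoters, and Nanog had 4, of which 2 lay over 50 kb away. Klf2 had 17 called regions between 15 and 50 kb, where Sox2 had 0, and the farthest lay at 60.9 kb. Nanog, and Sox17 of the SOX family with 3 of its 12 called regions over 50 kb, also had 0 at 15 to 50 kb.

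By the numbers of distal regions in replicate 1, replicate 2, both and Hi-C (log2 of 1 plus the number, Euclidean distance over 4 values), the genes most like Sox2 were Txnip, Letm2, Rag1ap1, Maff and Hoxd1. They had 28, 28, 28, 35 and 28 regions in replicate 1 and 49, 59, 61, 53 and 67 in replicate 2. Called regions numbered 15, 13, 14, 16 and 16, and Hi-C listed 3, 3, 2, 3 and 2. Their median distances were 7.03, 12.4, 6.22, 8.80 and 6.24 kb, beside 8.0 kb for Sox2. Called regions of Txnip, the gene of the thioredoxin-interacting protein, all lay within 14.4 kb, so it too had 0 at 15 to 50 kb, and 10 of 15 were downstream. Maff, which encodes a small MAF factor, had 9 of 16 downstream, 2 at 15 to 50 kb and 3 over 50 kb. Hoxd1, a homeobox gene, had 9 of 16 downstream and 1 over 50 kb, and Letm2, of a family of mitochondrial membrane proteins, had 9 of 13 downstream and 3 over 50 kb. Rag1ap1, a sugar transporter gene, had 3 at 15 to 50 kb and 1 over 50 kb.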

How the data were processed

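HiCap and Hi-C of R1 mESCs were taken from the lists that the authors deposited. For HiCap, the authors mapped read ends one by one to mm9 (HiCUP with Bowtie, trimming unmapped ends stepwise), removed multi-mapping reads, PCR copies and pairs closer than 1 kb, and required at least 3 read pairs per MboI fragment pair in each replicate. The alignment and threshold behind the Hi-C list are not given in the sources used here. The values that the authors deposited in the lists used here are genomic positions without read numbers or normalization, so the depth behind each contact is unknown here and no test between samples was possible. The library depths that the study states were not used.

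A pair was called when both replicate lists held the identical promoter and distal fragment. Shares carry exact binomial 95% intervals (scipy 1.17.1). Genes and starts came from GENCODE without pseudogenes, and MboI sites and sequences from the mm9 genome; 71953 of 71954 called distal regions had GATC at both ends, and 67 of the 68 Sox2 regions were 1 MboI fragment. The name of Gm3143 was matched in RefSeq (GRCm38 annotation, names only). Scripts (Python 3.11.15) were tested on simulated data.

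The genes named were Sox2, those with a listed promoter within 1 Mb or at a called region, genes overlapping a called region, the 5 most alike in numbers, and members of the SOX and pluripotency lists. Members and lists were chosen with earlier results of these data known. Alternatives were single lists, the combined list, pairs over 15 kb, matching within 1 kb, gene level, merged fragments, annotated starts and other gene backgrounds. Columns not used numbered 0. The sequence of a further called fragment is not reported here.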

Additional observations from a re-analysis of the deposited data

How the results depend on the processing

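The number of called Sox2 regions was 16 in the combined list and at gene level and 20 with matching within 1 kb. It was 4 for pairs over 15 kb and 9 with adjoining fragments merged, both by construction, and 25 to 58 in single lists. For pairs over 15 kb, the share of replicate 1 regions in replicate 2 was 33.3%, that of replicate 2 regions in replicate 1 was 9.52%, and 100% of called regions were downstream. Matching within 1 kb gave 43.1% of replicate 2 regions in replicate 1 and 37.5% of called regions in Hi-C. The median distance was 13.7 to 90.4 kb in single lists, the higher value without replicate 1, and the downstream share 87.9 to 88.0%. With adjoining fragments merged, the downstream share was 77.8% (7 of 9, 40.0 to 97.2). With annotated starts, 18.8% of called regions had Sox2 as the nearest. Gene level could not change a result, because Sox2 had a single promoter fragment. The combined list could not either, because it held the same 16 called regions. Of 28 alternatives in all, these included, 18 stayed within the limit set for their result and 10 did not. That limit was the main interval for shares and the spread between replicates for the median and percentile. For the number of called regions it was a fixed fold change. No alternative turned the side of the downstream skew. No paired analysis was possible because the Hi-C replicates share 1 list, Capture-C was not analysed and no result came from a test.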
